A study of Zea mays with 32 samples.

Results

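Of 39510 gene identifiers counted along maize roots, 59 were at least 10-fold lower in the tip slice than in each of the next slices and were still expressed at the back of the root. They were chosen by measured values in a table of RNA-seq counts. A member had at least 10 CPM (counts per 1000000 counts of a library) in each of the 6 libraries of slices 2, 3 and 4. Each of those 6 values was at least 10 times both values of slice 1, the tip. Its mean CPM over slices 13 to 16 was at least 0.5 times its mean over slices 2 to 4. The levels in slices 1 to 4 and the mean of slices 13 to 16 therefore describe how the genes were selected, and no test was made on them. Slices 5 to 12 were not used by the selection. Slices 9 to 12 adjoin the slices kept by the last condition, so a comparison of slices 9 to 12 with slices 5 to 8 is not wholly apart from it.

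The roots were wild-type maize (Zea mays) of the inbred line B73 at 7 days after germination, grown on paper in a growth chamber. A pair of roots, B and A, was pinned together and cut by hand from the tip backwards into 16 slices, which gave 32 libraries, 1 for each slice of each root. Every slice thus has the same genotype, age and growth conditions, and by the labels the slices of a root differ in position alone. The labels number the slices and assign none to a developmental zone. A root tip carries the cap, which covers and protects the growing point, and the meristem, in which cells divide. Farther back cells elongate, and behind them they mature, form root hairs and differentiate their vascular and ground tissues.

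The identifiers could not be paired with gene names, since 0 of them matched the reference table of 49888 maize genes. For this reason no function is given for a member, and 9 lists of genes held by symbol could not be examined: cell cycle and histones, ground tissue regulators, auxin transport and response, aquaporins, secondary wall and lignin, sucrose cleavage and transport, nitrogen uptake and assimilation, lipoxygenases and benzoxazinoid synthesis. Which cells a slice held was therefore not checked. In slices of whole tissue, fewer cells of a type and less RNA per cell cannot be told apart. The pair of roots are the replicates, and slices cut from the same root depend on each other. A p-value here reflects only how far this pair of roots differed, apart from the comparison of the roots, where slices served as repeats.

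The libraries held 1008082 to 5681180 counts (median 1860465). Slice 1 had 1139921 counts in root B and 1052117 in root A, among the smaller totals. Compared at 1000000 counts, slice 8 of root A stood apart with 8262 genes expected, slice 1 of root A had 13740, slice 12 of root A 14639 and the other libraries 17414 to 19840. The libraries of slice 7 were nearly alike: the median absolute log2 ratio of root B to root A over the members was 0.12 there, against 0.34 to 1.01 in the other slices behind the tip except slice 8, where it was 2.88. The kit amplifies cDNA and the labels mention no molecular identifiers, so the floors on counts of 0 given below cover counting error only.

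Slices 2 to 4 held the members at a mean of 16.2 to 350 CPM (median 36.8), against almost no counts in slice 1. Over all 59 members together, slice 1 held 33 counts in root B and 7 in root A. No member had more than 6 counts in root B or 2 in root A. Of the 59, 38 had no count in either tip library, 14 had 1 count and 7 had 2 or more. Root B had counts for 18 members, root A for 6, and both roots for 3. A count of 0 over both tip libraries allows up to 3 counts, or 1.37 CPM. Against this floor, the 38 members without a count were at least 14.9-fold to at least 117-fold higher in slices 2 to 4 (median of the bounds 26.4). These values restate the selection; a count of 0 in libraries of this size does not show that a transcript was absent.

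The number of genes selected rested on slice 1 of root B. With slice 1 of root A as the only tip library the selection would have taken 359 genes, and with slice 1 of root B as the only one it would have taken 84. The tip library of root A held fewer genes than that of root B, and its 10 most abundant genes took 22.2% of its counts, against 16.8% in root B.

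The limits of the selection cut through a continuum. The lowest ratios of a slice 2 to 4 library to slice 1 among the members with a count in slice 1 were 10.0, 11.5 and 12.4, while genes meeting the other conditions lay just outside at 9.91, 9.89 and 9.78, and 28 such genes had a ratio of 5 to 10. The lowest ratios of slices 13 to 16 to slices 2 to 4 were 0.51, 0.54 and 0.54 among members, and 0.45, 0.45 and 0.44 outside. At the level limit, members had 10.6, 10.8 and 10.9 CPM in their lowest library of slices 2 to 4, and genes outside had 9.66, 9.53 and 8.98 CPM.

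Most genes with the gap at the tip were not kept at the back. Of 389 genes with the 10-fold gap to slice 1, 59 (15.2%) met the condition on slices 13 to 16. Of 7263 genes at the same level in slices 2 to 4 but without the gap, 3929 (54.1%) met it. The other 330 genes with the gap, which were not kept at the back, and the 3929 genes kept at the back without the gap serve below as comparison sets. Both share conditions of the selection with the members, so their differences from the members are descriptions.

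**Figure D1:**
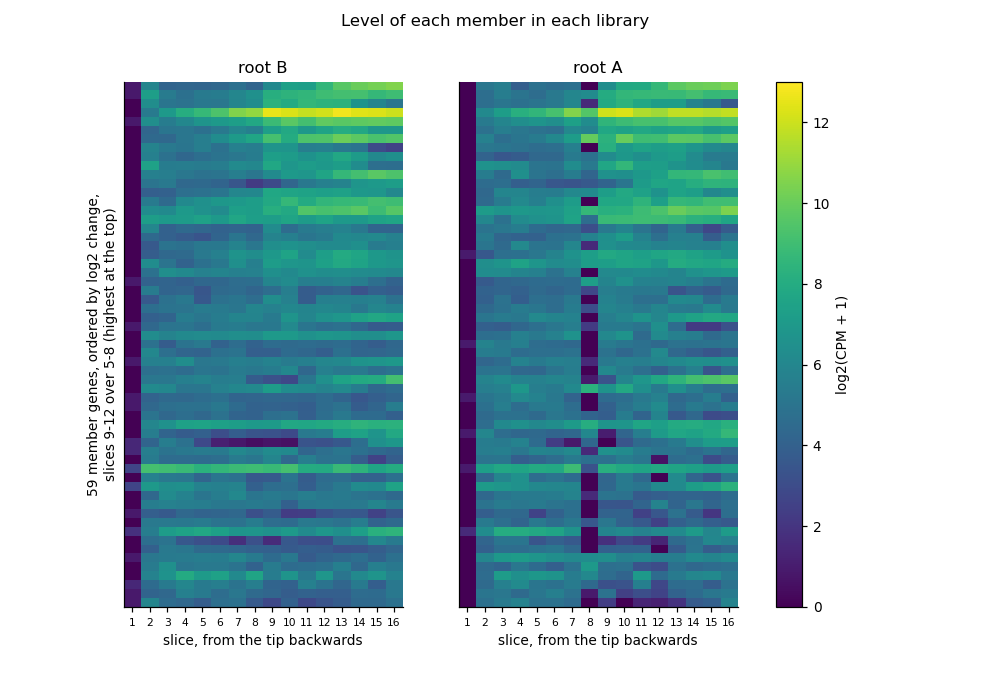
Level of each of the 59 members in each library, as log2(CPM + 1), with root B on the left and root A on the right, slices from the tip backwards across and members down, ordered by their change between slices 9 to 12 and slices 5 to 8. Slice 1 is dark in both roots by selection, slice 8 of root A has 20 members at 0, and the upper rows brighten from slice 9 backwards in both roots.

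In slices 5 to 12, which the selection did not use, most members were present in nearly every library. At least 10 CPM was reached by 50 to 58 members in each library of slices 5 to 16 other than slice 8 of root A, which had 27 and held no count for 20. In all 15 libraries of slices 5 to 12 but that one, 43 of 59 members (72.9%) had at least 10 CPM, against 29 of the 330 genes not kept at the back (8.79%) and 3297 of the 3929 genes kept without the gap to the tip (83.9%). With slice 8 of root A included, the number of members was 19. In each of the 15 libraries, 50 members were at least 10 times both slice 1 values, and 55 had a count in each of them. For the 38 members without a count in either slice 1 library, any count meets the first condition. For those members it shows presence and does not measure a gap.

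The lapses were few. In slices 5 to 12, 6 members were under 10 CPM in both roots of at least 1 slice. Of these, 2 members had 1 such slice and the others had 2, 3, 4 and 5. Slice 9 held the most, with 5 members. For these genes the label of a gap at the tip alone does not hold in full, because they were low again in the middle of the cut root. Farther back, Zm00001d029072 and Zm00001d021024 were also under 10 CPM in both roots of slice 15. They had 6.88 and 3.18 CPM in root A, and 4.94 CPM each in root B.

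**Figure D2:**
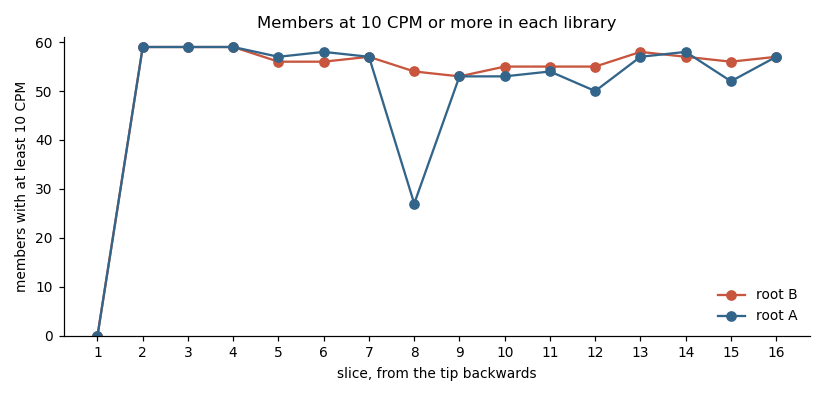
Number of the 59 members with at least 10 CPM (vertical axis) in each slice from the tip backwards (horizontal axis), with root B and root A as separate lines. Slice 1 has 0 and slices 2 to 4 have 59 by selection; slices 5 to 16 have 50 to 58 except slice 8 of root A, with 27.

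The median member had 46.2, 56.1 and 64.8 CPM in the lowest, median and highest library of slices 9 to 12, against 7.59, 35.1 and 45.7 CPM in slices 5 to 8. The lowest of slices 5 to 8 was slice 8 of root A, and without it the lowest was 31.8 CPM. In slices 2 to 4 the same 3 values were 29.8, 34.9 and 40.4 CPM, and in slices 13 to 16 they were 42.9, 57.1 and 63.1 CPM. The libraries of slices 9 to 12 thus all lay above those of slices 5 to 8, by a margin that was narrow at its closest point.

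Relative to its own mean in slices 2 to 4, the median member stood at 0.89 in slice 5, 0.95 in slice 6, 1.07 in slice 7, 0.67 in slice 8, 1.59 in slice 9 and 1.85 in slice 10. It stood at 1.23 in slice 11, 1.59 in slice 12, 1.36 in slice 13, 1.26 in slice 14, 1.23 in slice 15 and 1.49 in slice 16. With the roots averaged, the genes kept at the back without the gap lay between 0.97 and 1.39 from slice 2 to slice 16, and at 1.06 in slice 1. In slice 8 the roots were far apart. Root A and root B stood at 0.28 and 1.40 for these genes and at 0.22 and 0.97 for the members. For the genes not kept at the back they stood at 0 and 0.28. The genes not kept at the back stood at 0.96 in slice 5, 0.57 in slice 7, 0.17 in slice 8 and 0.041 in slice 12. The median of the genes not kept thus lay below that of the members by slice 7, ahead of the slices on which that condition was placed. The condition at the back is what separates these sets, so a difference in the slices leading up to it partly restates the selection.

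**Figure D3:**
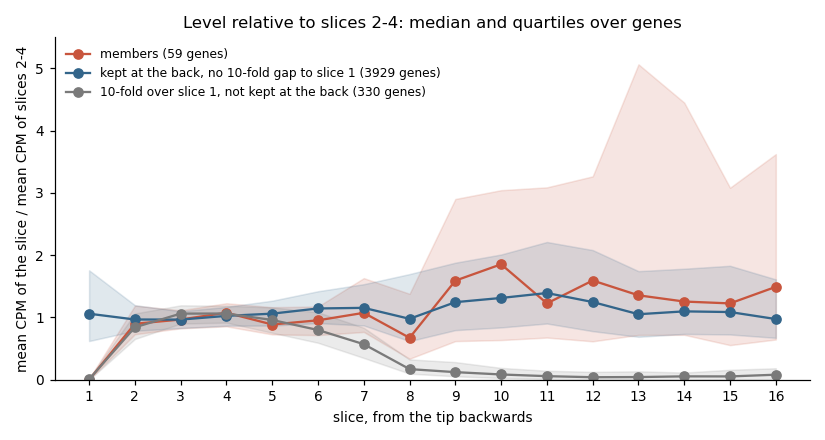
Mean CPM of each slice over the mean CPM of slices 2 to 4 (vertical axis) along the root (horizontal axis), as the median (line) and quartiles (band) over the genes of each set: 59 members, 3929 genes kept at the back with no gap to slice 1, and 330 genes with the gap that were not kept at the back. The members' median is near 1 to slice 7 and 1.23 to 1.85 from slice 9 backwards, with upper quartiles above 2.9 there.

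Members differed widely from each other behind the tip. Over slices 5 to 12, a member's mean was 0.221 to 16.2 times its mean in slices 2 to 4 (median 1.28): 5 members were under 0.5 times, 20 between 0.5 and 1, 18 between 1 and 2, and 16 at 2 or above. The highest slice lay in slices 2 to 4 for 9 members, in 5 to 8 for 7, in 9 to 12 for 18 and in 13 to 16 for 25, 12 of them in slice 16. Of the 7, 3 were highest in slice 8. These 3 had 318, 129 and 155 CPM in slice 8 of root A, against 69.0, 16.2 and 24.7 CPM in root B. Leaving out slice 8, the lowest slice behind the tip was slice 2 for 14 members, slice 15 for 9 and slice 9 for 7. At the back, the mean of slices 13 to 16 was 0.507 to 35.6 times that of slices 2 to 4 (median 1.33). Of the members, 24 were under 1, 11 were between 1 and 2, and 24 were at 2 or above, 6 of these at 10 or above.

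A single member dominated the summed level. It averaged 159 CPM in slices 2 to 4, 966 CPM in slices 5 to 8, 4208 CPM in slices 9 to 12 and 4405 CPM in slices 13 to 16. Over slices 2 to 16 it took on average 25.6% of the members' summed CPM, and its mean over all libraries was 2425 CPM, against 397 CPM for the next. The summed CPM of the members was 28.9 in root B and 6.65 in root A of slice 1. It was 2399 to 3528 in slices 2 to 4, 3118 to 3637 in slices 5 and 6, 9074 to 12281 in slices 9 to 12 and 11936 to 16157 in slices 13 to 16.

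The first test compared slices 9 to 12 with slices 5 to 8 across all 19587 genes with enough counts, all 59 members among them. By edgeR's quasi-likelihood test with Benjamini-Hochberg adjustment at 0.05, 27 members rose and 2 fell, against 22.0% of all genes called higher and 21.1% called lower. As shares of the members, these counts are 45.8% and 3.39%. The median log2 change was 0.69 over the members and 0.01 over all genes, and it was positive for 45 members. Among the 3929 genes kept at the back without the gap, 1308 (33.3%) were higher and 99 (2.52%) lower, with a median of 0.43. Among the 330 genes not kept, 1 was higher and 287 (87.0%) were lower, with a median of −2.65. The condition on slices 13 to 16 favours genes that do not fall backwards, for the members and the 3929 genes alike. Its part in the excess of higher over lower members was not tested. DESeq2's size factors moved the median of all genes to −0.14 and that of the members to 0.53, with 25 members higher and 3 lower. Over all genes, 3659 were then called higher and 4830 lower.

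The 27 members that rose did so by log2 changes of 0.82 to 3.48 (median 1.79): 25 at least 2-fold and 12 of them at least 4-fold. Their median level was 148 CPM in slices 9 to 12 and 42.7 CPM in slices 5 to 8. In 22 of the 27, slice 1 held no count in either root. The median of these genes, relative to slices 2 to 4, stood at 0.94 in slice 5, 1.04 in slice 6 and 1.55 in slice 7. In slice 8 it was 1.13, with 1.46 in root B and 0.42 in root A. It reached 3.05 in slice 9 and 3.33 in slice 10, peaked at 4.78 in slice 13 and ended at 2.36 in slice 16. The 27 were picked by the rise from slices 5 to 8 to slices 9 to 12, so the values over those slices partly restate the call. The median over the 27, with the roots averaged, was thus near 1 up to slice 6 and above it from slice 7 on. In slice 8 this did not hold for root A alone. Single members differed: Zm00001d042664, for one, was still at 27.3 CPM in both roots of slice 7, against a mean of 31.6 CPM in slices 2 to 4. Their mean over slices 13 to 16 was at or above that of slices 2 to 4 in 24 of 27, with a median ratio of 3.71.

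The 30 members that did not pass the test had log2 changes of −0.68 to 0.77. Their median, relative to slices 2 to 4, stood at 0.88 in slice 5, 0.75 in slice 9 and 0.66 in slice 10. A change that misses the threshold does not show a constant level. All 29 called members had the same direction in root B and in root A, which concerns the sign of the difference alone. The size could differ: for Zm00001d033855, called higher, the log2 ratio of mean CPM + 1 was 0.0035 in root B and 2.19 in root A. Over all 59, the mean of slices 9 to 12 was above that of slices 5 to 8 in both roots for 35, below in both for 13, and opposite in the roots for 11. With slice 8 left out of both roots the numbers were 35, 16 and 8.

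Slice 8 of root A, the library with the fewest genes, lies in this contrast. The members called in the following fits are given without the share of all genes called there. Their numbers therefore cannot be read as particular to the members. Without it, 27 members were called higher, 26 of them the same genes, and 4 lower. Without slice 8 of root B, so that the library of root A stood alone for the slice, 35 were higher and 0 lower, and the median over all genes moved to 0.84. Without slice 12 of root B, the median log2 change was −0.14 over all genes and 0.72 over the members. Of the 27 higher members, 26 were called without either library of slice 8 in turn, whereas both lower members were no longer called without that of root B.

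**Figure D4:**
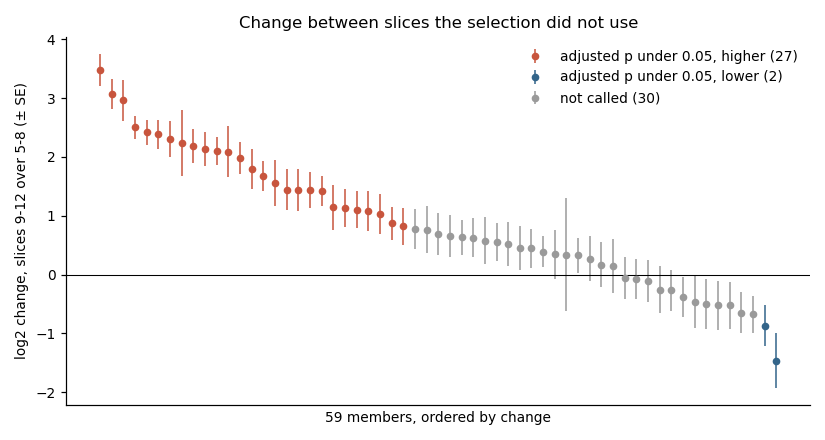
Log2 change in slices 9 to 12 over slices 5 to 8 for each of the 59 members (vertical axis, ± SE), ordered by size along the horizontal axis, with members called higher, called lower and not called in separate colours. The 27 members called higher run from 0.82 to 3.48 and the 2 called lower are −0.87 and −1.46.

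The highest changes were those of Zm00001d042664 and Zm00001d026426. Zm00001d042664 had 71.7, 199 and 400 CPM in the lowest, median and highest library of slices 9 to 12, against 0, 21.8 and 27.8 CPM in slices 5 to 8, where the 0 was slice 8 of root A. The groups did not overlap. It averaged 215 ± 123 CPM over slices 9 to 12 and 20.2 ± 9.19 CPM over slices 5 to 8 (SD, n = 8 each, from 4 slices of both roots), a log2 change of 3.48 ± 0.27 (SE; adjusted p = 1.01e-11, edgeR quasi-likelihood test). Without slice 8 of root B, which leaves the 0 of root A alone for that slice, the log2 change was 5.35. Its level climbed on in the back slices, to 1502 CPM in root B and 1408 CPM in root A of slice 16.

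Zm00001d026426 had 255, 380 and 504 CPM in the lowest, median and highest library of slices 9 to 12, against 24.4, 52.0 and 90.6 CPM in slices 5 to 8. These groups were also apart, and here slice 8 of root A, with 76.9 CPM, was close to the 90.6 CPM of root B. The log2 change was 3.07 ± 0.25 (SE; adjusted p = 2.33e-11, edgeR quasi-likelihood test). From slice 10 to slice 16 the gene lay between 341 and 582 CPM. It was highest in slice 14 in both roots, whereas Zm00001d042664 was highest at the last slice. Both genes had 1 count in slice 1 of root B and 0 in root A.

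The members that fell were Zm00001d009631 and Zm00001d023243. Zm00001d009631 had 0, 5.12 and 15.6 CPM in the lowest, median and highest library of slices 9 to 12, against 0, 23.9 and 28.6 CPM in slices 5 to 8, again with slice 8 of root A at 0. The groups overlapped through that library, slice 8 of root B at 12.0 CPM and slice 5 of root B at 13.2 CPM. The log2 change was −1.46 ± 0.47 (SE; adjusted p = 0.0115, edgeR quasi-likelihood test). Farther back the gene returned to 28.1 CPM in root B and 56.1 CPM in root A of slice 16. In root A it was under 5 CPM in slices 9 to 13, while root B had 6.02 to 15.6 CPM there.

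Zm00001d023243 had 4.52, 13.7 and 29.1 CPM in the lowest, median and highest library of slices 9 to 12, against 0.949, 31.0 and 48.2 CPM in slices 5 to 8, with slice 8 of root A at 0.949 CPM. The groups overlapped. The log2 change was −0.87 ± 0.35 (SE; adjusted p = 0.0444, edgeR quasi-likelihood test), and it reached 36.2 CPM in root B and 38.6 CPM in root A of slice 16. Both calls were kept without slice 8 of root A and without both libraries of slice 8. Both were lost without slice 8 of root B, which leaves root A alone for that slice: the log2 change was 0.30 for Zm00001d009631 and −0.02 for Zm00001d023243. Without slice 8 of root A it was −1.67 for Zm00001d009631 and −1.09 for Zm00001d023243. Without slice 10 of root B, where it had 15.6 CPM, the log2 change of Zm00001d009631 was −3.31. Over 43 alternatives, the calls of both genes that rose were kept in every one, that of Zm00001d009631 in 40 and that of Zm00001d023243 in 14.

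**Figure D5:**
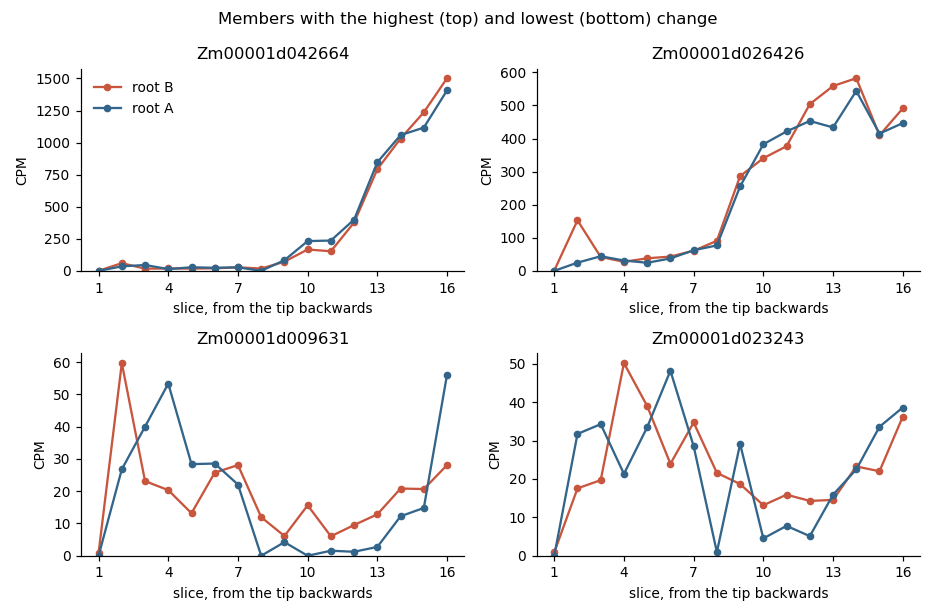
CPM (vertical axis) of the members with the highest changes (top row) and the lowest changes (bottom row) in each slice from the tip backwards (horizontal axis), with root B and root A as separate lines. Zm00001d042664 climbs to 1502 and 1408 CPM in slice 16, and Zm00001d026426 is highest in slice 14. Zm00001d009631 and Zm00001d023243 dip in the middle and are higher again in slice 16.

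The joint test asked whether a gene varied in any way between slices 5 to 12. By edgeR's quasi-likelihood test with Benjamini-Hochberg adjustment, 23 of 59 members (39.0%) were called, against 36.1% of all genes, so the members' share was near the background. It was 26.6% among the genes kept at the back without the gap and 86.4% among those not kept. Without slice 8 of root B, 42 members were called, and so were 10845 of the 21167 genes tested in that fit. Of the 23, 4 were not called between slices 9 to 12 and slices 5 to 8, and they are named after their values were seen: Zm00001d015243, Zm00001d021599, Zm00001d021775 and Zm00001d046995.

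Zm00001d046995 had 55.9 CPM in root B and 52.2 CPM in root A of slice 5, 8.49 and 9.13 CPM in slice 9, and 91.7 and 218 CPM in slice 12 (joint adjusted p = 0.000495, edgeR). Zm00001d021775 had 14.8 CPM in root B and 21.0 CPM in root A of slice 5, 8.83 and 1.05 CPM in slice 9, and 44.4 and 133 CPM in slice 12 (joint adjusted p = 0.000322, edgeR). Both were low in slice 9 in both roots and high 3 slices later. In slice 8, Zm00001d021775 had 63.6 CPM in root A and 9.26 CPM in root B. Its log2 ratio of mean CPM + 1, slices 9 to 12 over slices 5 to 8, was 1.03 in root B and 0.69 in root A, though the change was not called. In Zm00001d021599 the roots differed. Root B was highest in slice 9, with 146 CPM against 33.2 CPM in slice 5. Root A had 318 CPM in slice 8, 101 CPM in slice 9 and 227 CPM in slice 10, against 45.4 CPM in slice 5 (joint adjusted p = 0.00618, edgeR). The 318 CPM came from slice 8 of root A, the library with the fewest genes, and root B had 69.0 CPM in that slice.

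Within the back of the root, slices 15 and 16 were set against slices 13 and 14, a difference that the mean over these slices does not use. The median member had 42.9 to 61.1 CPM in the libraries of slices 15 and 16 and 55.6 to 63.1 CPM in those of slices 13 and 14. No member was called by edgeR's quasi-likelihood test, against 0.107% of all genes called higher and 0.112% called lower. The lowest adjusted p of a member was 0.0506 by edgeR, 13 members had an unadjusted p under 0.05, against 1820 of the 19587 genes, and DESeq2 called 0 higher and 1 lower. The median log2 difference was −0.26 over the members and 0.00 over all genes. With root as a block, 1 member was called higher and 1 lower. Without slices 1, 8 and 12 of root A, 1 was higher and 7 lower, and without slice 8 of root B alone 3 were lower. The count of 0 is therefore not stable, and few genes of any kind were called in the main fit of this comparison. The share of all genes called in each other fit is not given here, so these counts cannot be read as particular to the members.

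The roots were compared over slices 5 to 12, with slice in the model. Slices of the same root, which depend on each other, served as the repeats in this test. The p-values and SE of this test concern this pair of roots only, and do not measure how far roots differ in general. No member was called higher in root B by edgeR's quasi-likelihood test and 2 were called lower, against 0.699% of all genes higher and 0.827% lower. At an unadjusted p under 0.05 there were 10 members and 2457 of the 19587 genes. The median log2 difference, root B over root A, was 0.01 over the members and 0.11 over all genes. The members that differed, Zm00001d021529 and Zm00001d015243, are named after their values were seen.

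Zm00001d021529 had 12.5, 37.6 and 60.9 CPM in the lowest, median and highest slice of root B, against 45.2, 73.5 and 110 CPM in root A. It was lower in root B in 8 of 8 slices, by a log2 difference of −1.33 ± 0.32 (SE; adjusted p = 0.0346, edgeR). The ranges overlapped, but within every slice the order was the same. Slices 2 to 4 gave the same order, with 35.1, 40.3 and 41.3 CPM in root B and 62.5, 122 and 139 CPM in root A.

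Zm00001d015243 had 0.386, 0.989 and 9.46 CPM in the lowest, median and highest slice of root B, against 0, 14.4 and 26.4 CPM in root A. It was lower in root B in 7 of 8 slices, by a log2 difference of −2.07 ± 0.54 (SE; adjusted p = 0.0475, edgeR). In both roots it was under 1 CPM in slice 7, with 0.780 CPM in root B and 0.865 CPM in root A, and slice 16 had 117 CPM in root B and 152 CPM in root A. The call on these genes is fragile, and the share of all genes called in each fit below is not given here. In each case of leaving out 1 library of slices 5, 6 or 9 to 12, 0 members were called. Without either library of slice 8, 3 members were called lower.

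Of the 59 members, 25 were called in none of the 4 tests. The matching share of all genes is not given here, so the number cannot be read as particular to the members. These genes were selected for a gap at the tip and a level at the back, and between those slices no test separated their levels by position or by root.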

How the data were processed

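RNA was measured in 32 libraries from 2 roots cut into 16 slices each; per the labels' protocols, the kit was the Ovation RNA-Seq System V2, which amplifies cDNA. The authors deposited a table of whole-number counts per gene for 39510 identifiers, 39336 of the Zm00001d series and 174 of the GRMZM5G series. Trimmomatic, kallisto 0.43 and DESeq2 were used per the submitters' processing notes, which give no roles. For the build, annotation, summing to genes, rounding and use of strand, a statement is not given in the sources used here. If the counts are kallisto's, it apportions reads among near-identical copies by estimation, which leaves the values of such genes uncertain. Groups and roots come from the sample labels; 0 columns lacked a sample. No names or sequences could be attached.

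CPM is a count over its library's total. The selection took Zm00001d identifiers only; GRMZM5G counts stay in the totals. Tests used edgeR 4.0.16 (R 4.3.3). Genes passed filterByExpr with slices as groups, at a minimum count of 10 and total of 15; libraries were scaled by TMM, with a robust quasi-likelihood fit (legacy = FALSE) of 16 slices over 32 libraries, without a block. The roots were compared over slices 5 to 12 in a model of slice and root. P-values were Benjamini-Hochberg adjusted over all genes tested, with calls at 0.05; the SE is the log2 change over the square root of F. The steps were tested on simulated data. The labels' root letters pair the libraries, since a letter marks 1 root: for slices sharing a root, departures from the slice mean correlated at a median of 0.145 over 120 pairs of slices (−0.0173 to 0.373; 116 above 0).

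The naming rule took members called between slices 9 to 12 and slices 5 to 8, with a mean of at least 10 CPM and the same direction in each root, and then the 2 highest and 2 lowest changes. Since names could not be attached, its part for named genes did not apply. Of the members, 27 higher and 2 lower ones met it. Members, lists and comparisons were chosen with earlier results of these data known. Alternatives were DESeq2 1.42.0 and its size factors, other filters, the older dispersion step, the replicate block, fits of fewer libraries, 1 library left out in turn, and other limits of the selection. The fit without slices 1, 8 and 12 of root A was added after the data were seen.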

Additional observations from a re-analysis of the deposited data

Results flagged for a closer look

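Among 15 groups of 8 libraries examined for a library apart from the rest, 4 were found, all in slices 5 to 8 and all through slice 8 of root A. Chance gives about 1 in 20 such groups, and the 4 share that library, so they are not independent. The median member had 7.59 CPM in that library, against 31.8 to 45.7 CPM in the other libraries of slices 5 to 8. Zm00001d042664 was at 0 CPM there, against 17.7 to 27.8 CPM in the others. Zm00001d009631 was at 0 CPM, against 12.0 to 28.6 CPM, and Zm00001d023243 at 0.949 CPM, against 21.6 to 48.2 CPM. The library had 8262 genes expected at 1000000 counts, and whether this accounts for the low values was not tested.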

How the results depend on the processing

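The count of 27 members higher in slices 9 to 12 than in slices 5 to 8 stayed between 24 and 35 in every alternative. The 2 lower members became 1 with no filter on low counts, with slice 7 counted as 1 library and with only the libraries compared, 0 with the older dispersion step and 6 without both libraries of slice 8; leaving out 1 library in turn gave 0 to 6. Slices 9 to 10 against slices 5 to 6 gave 24 higher members, 23 of them shared, and 2 lower, 0 of them shared. In the joint test, 1 library left out gave 21 to 42 members. Between slices 15 to 16 and slices 13 to 14, against 0 higher and 0 lower, the replicate block gave 1 higher and 1 lower, the fit without slices 1, 8 and 12 of root A 1 higher and 7 lower, no filter 1 lower, DESeq2 1 lower, both libraries of slice 8 left out 2 lower, and 1 library left out 0 higher and 0 to 3 lower. The replicate block moved no other count by more than 1.5 times, with 29 higher and 3 lower members in slices 9 to 12 and 29 in the joint test. Between the roots, against 2 members lower in root B, no filter gave 0, the older step 0, a mean of at least 10 CPM 1, slice 7 as 1 library 1, the fit without slices 1, 8 and 12 of root A 1, and 1 library left out 0 to 3, with 0 higher throughout. Over all genes, the older step called 4241 in the joint test, against 7075; the alternatives ran from 0 to 171 higher and 0 to 272 lower, against 21 and 22, in slices 15 to 16, and from 27 to 367 higher and 23 to 403 lower, against 137 and 162, in root B.

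The 59 members became 99 at 5 CPM, 26 at 20 CPM, 35 with the back at least equal to the front and 91 with the back at least 0.25 of it, and 57 to 359 with 1 library left out. CPM on TMM-scaled sizes also gave 59, 50 of them shared. The 19 members at 10 CPM or more in every library of slices 5 to 12 became 43 without slice 8 of root A. Zm00001d009631 turned to a log2 change of 0.30 without slice 8 of root B, and over all libraries left out in turn ran from −3.31 to 0.30. The cause of these changes was not tested. Where a slice is left with 1 library, its spread is taken to be that of the others. A count of 0 over both tip libraries leaves levels up to 1.37 CPM possible.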
